A study of Mus musculus with 4 samples.

Results

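The interactions described here join 2 stretches of the mouse genome that both lie away from protein-coding genes. They come from a single deposited list of 99041 chromatin interactions between 10 kb bins on the 19 autosomes, in which 13294 interactions (13.4%, exact 95% interval 13.2 to 13.6) had neither bin on a coding-gene body or within 2.5 kb of its ends, by RefSeq annotation of mm10. Another 37032 interactions (37.4%) had 1 bin on a coding gene, and 48715 (49.2%) had both. The labels describe 4 libraries from mouse brain made with an antibody to H3K27ac; their protocol and the design text name HiChIP, while the sample titles read ChIP-seq. There are 2 from tumors of YAP-M fusion genotype and 2 from cultured wild-type neural progenitor cells, named mNSC. How the fusion was delivered, and whether animals were pooled, was not stated in those labels. The list was read as the tumor one from the letters in its name. Neither the labels nor a header ties it to a library, and it holds positions only, with no counts, scores or values per sample. Sequencing depth and replicate spread are therefore unknown, no comparison of tumor with progenitor cells was possible, and intervals on shares cover counting error only. Neighbouring interactions are also not independent of each other.

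Acetylated H3K27 marks active enhancers and promoters. HiChIP recovers pairs of DNA segments that were close in the nucleus, where at least one carries the mark. A contact between a pair of segments away from coding genes can join enhancers to each other, or to promoters of noncoding RNA genes. Long noncoding RNAs (lncRNAs) have their own promoters, and some are host transcripts from which microRNAs are cut. A microRNA pairs with target messages mainly through its seed, the bases 2 to 8 of the mature strand.

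MicroRNA genes at the anchors include families whose copies lie on different chromosomes. Their sequences are shown because several copies of one seed were found at intergenic anchors. Of 55 microRNA genes at anchors, 50 had a mature sequence that could be matched by gene symbol in the RefSeq table for GRCm38.p6. Capitals mark the seed.
Mir125b-1 and Mir125b-2, miR-125b-5p: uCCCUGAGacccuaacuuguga
Mir100, miR-100-5p: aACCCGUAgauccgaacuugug
Mir99a, miR-99a-5p: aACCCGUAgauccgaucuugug
Mirlet7c-1, let-7c-5p: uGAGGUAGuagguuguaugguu
Mir9-2, miR-9-5p: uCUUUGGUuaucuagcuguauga
Mir15a, miR-15a-5p: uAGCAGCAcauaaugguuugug
Mir16-1, miR-16-5p: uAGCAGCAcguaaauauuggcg
Mir17, miR-17-5p: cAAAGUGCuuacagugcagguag
Mir20a, miR-20a-5p: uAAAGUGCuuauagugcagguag
The mature miR-100-5p and miR-99a-5p matched at 21 of 22 positions, with the single change A16U counted from the 5′ end, and miR-15a-5p and miR-16-5p matched at 16 of 22. The 5p strand of the paired Mir125b genes was the same at all 22 positions.

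The 13294 interactions had a median distance of 190 kb between bin starts, and quartiles of 110 and 330 kb. Interactions with 1 bin on a coding gene had a median of 200 kb, and those with both bins on coding genes 160 kb. Intergenic interactions under 100 kb made up 20.7% of their class, against 18.2% and 26.0% in the other classes. Interactions over 500 kb made up 10.9%, 10.8% and 7.38%, and 367 intergenic interactions (2.76%) spanned 800 kb or more. In distance, the intergenic class thus lay close to contacts with 1 bin on a coding gene. Its interactions used 9677 different anchor bins and merged to 5040 contacts when interactions within 1 bin at both sides were joined.

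**Figure D1:**
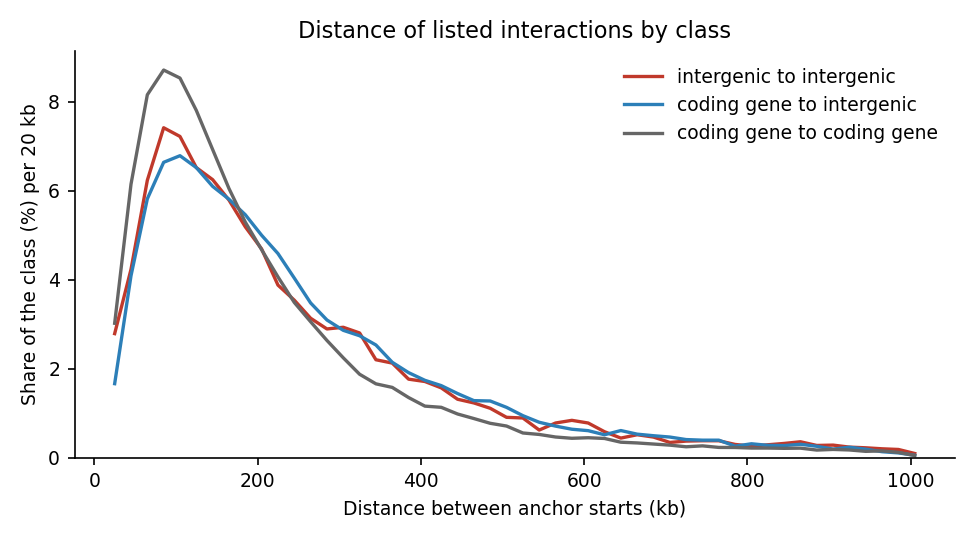
Share of each class of interaction (y axis, percent per 20 kb step) by distance between the bin starts (x axis, kb); the red line is interactions between intergenic bins. The red and blue lines run close together, with medians of 190 and 200 kb, and the grey line for contacts between coding genes peaks higher at short distance, with a median of 160 kb.

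Coding-gene-free bins were used less often as anchors than bins on genes. Between the first and last anchor of each autosome, 51.1% of 238927 bins were intergenic, and they supplied 32.6% of the 56427 anchors. An intergenic bin was an anchor in 15.1% of cases and a bin on a coding gene in 32.5%. Chromosomes differed in both directions. Intergenic interactions made up 21.5% of the list on chromosome 13, 21.1% on chromosome 10 and 20.1% on chromosome 16, but 4.92% on chromosome 7 and 5.52% on chromosome 19. Per 100 intergenic bins, chromosome 10 held 21.1 interactions and chromosome 7 held 4.42. Of the bins on chromosome 7, 46.0% were intergenic, against 50.8% on chromosome 10.

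The anchors lay closer to coding genes than intergenic bins in general. The nearest coding gene was a median 50.4 kb away (interquartile range 17.0 to 138.5 kb) for the 9677 anchors. The other 8702 intergenic anchors of the list, which contact only coding-gene bins, had a median of 34.7 kb, and all 121991 intergenic bins 111.6 kb. Only 3.33% of the anchors were 500 kb or more from a coding gene, against 16.3% of intergenic bins. Anchors of intergenic interactions thus sat farther from genes than intergenic anchors that contact genes only, and nearer than the average intergenic bin. Where strand was known, the anchor lay on the start side of its nearest gene in 55.1% of cases (54.0 to 56.3), other intergenic anchors in 57.1% (55.9 to 58.3), and intergenic bins in 53.4%. At the edge of the selection, 1362 interactions had an anchor 2.5 to 5 kb from a coding gene and a median distance of 170 kb, and 2006 excluded only by the 2.5 kb margin had 150 kb.

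**Figure D2:**
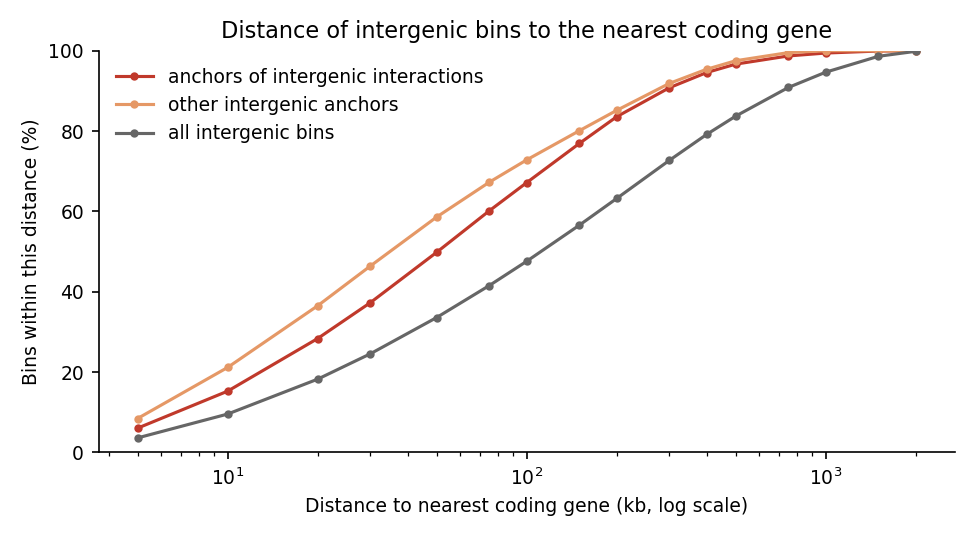
Cumulative share of bins (y axis, percent) within a given distance of the nearest coding gene (x axis, kb, log scale) for anchors of intergenic interactions, for other intergenic anchors and for all intergenic bins. The anchor curves rise earlier than the grey curve of all intergenic bins, with medians of 50.4, 34.7 and 111.6 kb.

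Most of the interactions stayed between the same pair of coding genes. In 8473 of 13294 (63.7%) no coding gene lay between the anchors, 24.9% passed over 1 coding gene, 9.92% over 2 to 4, 1.24% over 5 to 9, and 31 interactions (0.233%) over 10 or more. Interactions inside a coding-gene-free interval had a median distance of 150 kb, and those that passed over a gene 280 kb. The most genes passed over was 56, between a bin near Krt23, a keratin gene, and a bin near Eif1, a translation initiation factor, on chromosome 11 (99460001 to 100300000). Single genes lying under many contacts were picked out after their values were seen. Irf2bp2, a transcriptional co-repressor on chromosome 8, was the only gene under 109 interactions that joined 31 anchors, and 22 of those anchors also contacted an end of Irf2bp2. Hes1, the Notch-responsive repressor that keeps neural progenitors undifferentiated, lay under 52 interactions joining 40 anchors, of which 30 also contacted its ends. Tle3, a Groucho-family co-repressor, lay under 72 interactions with a median distance of 690 kb. By contrast Gm40514 on chromosome 9 lay under 65 interactions joining 40 anchors, of which 2 contacted its ends.

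Gene deserts, taken as coding-gene-free intervals of 500 kb or more, held 4313 of the interactions (32.4%), and those of 1 Mb or more held 1830 (13.8%). Deserts of 1 Mb or more alone held 36.3% of all intergenic bins. The shares of interactions count all intergenic interactions, including those that passed over a gene and so lie inside no interval. Intergenic bins, in contrast, all lie in an interval. The shares of interactions and of bins thus have different bases and cannot be compared directly. For their size, deserts of 1 Mb or more held fewer interactions than intervals of 100 kb to 1 Mb. Intervals under 100 kb held 1.45 interactions per 100 intergenic bins, those of 100 to 500 kb 10.6, those of 500 kb to 1 Mb 10.7, and those of 1 Mb or more 4.13. Of 600 deserts, 344 (57.3%) held no interaction, and of the 258 of 1 Mb or more, 142 (55.0%) held none. Shorter intervals were empty more often. At least 1 interaction was held by 0.959% of intervals under 100 kb and 26.4% of those of 100 to 500 kb. The share was 40.9% for 500 kb to 1 Mb and 45.0% for 1 Mb or more. The largest, 4542 kb between the protocadherin genes Pcdh20 and Pcdh9 on chromosome 14, held 0, and so did the 4278 kb between Cntnap5b and Cdh20 on chromosome 1. The 4511 kb between Celf4, an RNA-binding protein gene, and Pik3c3, which encodes a lipid kinase, held 8. One anchor there lay 2165 kb from Celf4, the farthest of any anchor from a coding gene.

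A few intervals held many of the contacts. Only 912 of 18588 intervals held any, with a median of 3, and the 10 fullest held 1258, or 14.8% of those inside 1 interval. The fullest lay on chromosome 14 (chr14:61612834-62276228) between Kcnrg, a potassium channel regulator, and Dleu7. It held 281 interactions in 663 kb, and 61 of its 65 intergenic bins (93.8%) were anchors. These were 13.9% of the 2016 pairs of bins that could have been listed by distance, against a median of 0.677% over the 568 intervals that had an interaction and 100 or more such pairs. Merging neighbours left 32 contacts there and changed the order of the intervals. Merged contacts numbered 65 between Nmbr and Cited2, 42 between Akr1e1 and Klf6, and 33 each between Klf4 and Actl7b and between Adamts5 and N6amt1, so the first place holds for unmerged interactions only. Among those 568 intervals with 100 or more pairs, the highest share of pairs was 22.8%. It was found in the shorter interval between Ccdc112 and Fem1c, picked out after its value was seen. Some intervals with fewer possible pairs had higher shares. The 2952 kb desert between Nmbr and Cited2 on chromosome 10 held 184 interactions that lay on the Cited2 side, up to 1383 kb from that gene, and 19.4% of its bins were anchors. Cited2 encodes a transcriptional modulator that binds the co-activators CBP and p300. The interval between Fn1, which encodes fibronectin, and Mreg held 170 interactions, with 44 of 49 bins (89.8%) as anchors.

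The other 7 of the 10 fullest held 82 to 101 interactions. They lay between Rasgrp1 and Thbs1 (101), Eea1 and Btg1 (91), Akr1e1 and Klf6 (89), Prickle1 and Adamts20 (89), Uaca and Tle3 (86), Runx1 and Setd4 (85), and Id2 and Rnf144a (82). Thbs1 encodes thrombospondin, Btg1 an antiproliferative protein, Klf6 a zinc-finger factor, Prickle1 a planar polarity protein, Runx1 a transcription factor and Id2 an inhibitor of basic helix-loop-helix factors. Contacts from inside an interval to its flanking genes were uneven. From bins of the Nmbr to Cited2 desert, 80 listed interactions reached an end of Cited2 and 0 an end of Nmbr. No listed interaction spanned more than 1000 kb. The anchors of the interactions inside this desert lay 1563.5 kb or more from Nmbr, so none of them could be listed with it. From the Rasgrp1 to Thbs1 interval 78 reached Thbs1 and 6 Rasgrp1, and from the Fn1 to Mreg interval 42 reached Fn1 and 0 Mreg. The Kcnrg to Dleu7 interval differed from these, with 2 interactions to an end of Kcnrg and 2 to an end of Dleu7 beside its 281 internal ones.

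**Figure D3:**
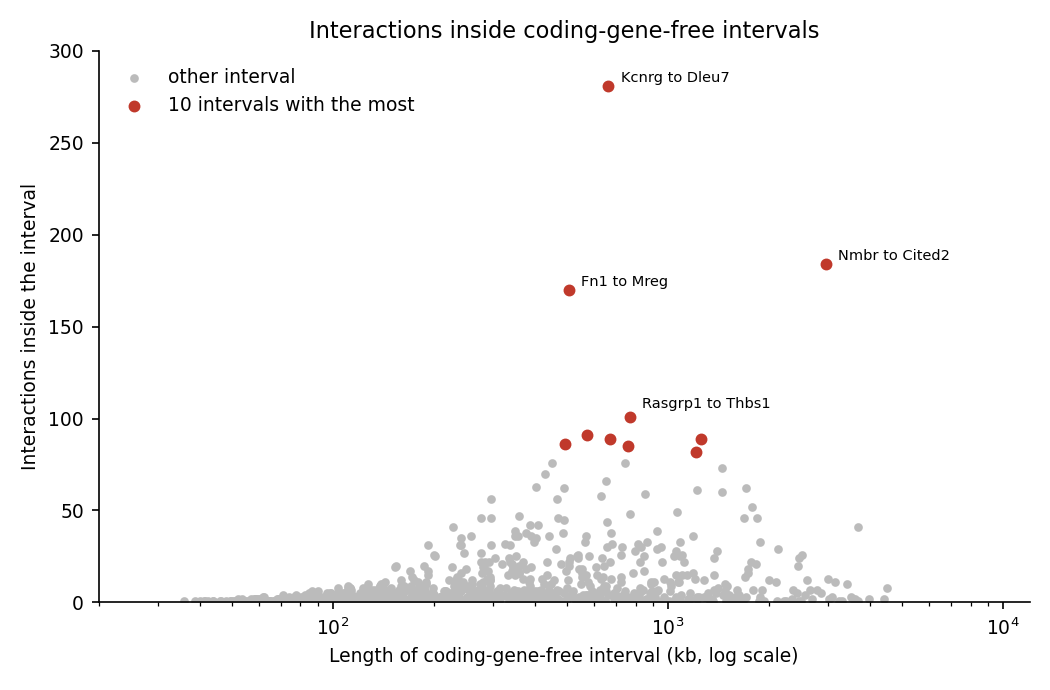
Interactions inside each coding-gene-free interval that holds at least 1 (y axis) against its length (x axis, kb, log scale); red points are the 10 fullest, of which the first 4 are named. The Kcnrg to Dleu7 point, at 281 interactions and 663 kb, stands above the rest, and the longest intervals mostly lie near 0, apart from Nmbr to Cited2 at 184.

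**Figure D4:**
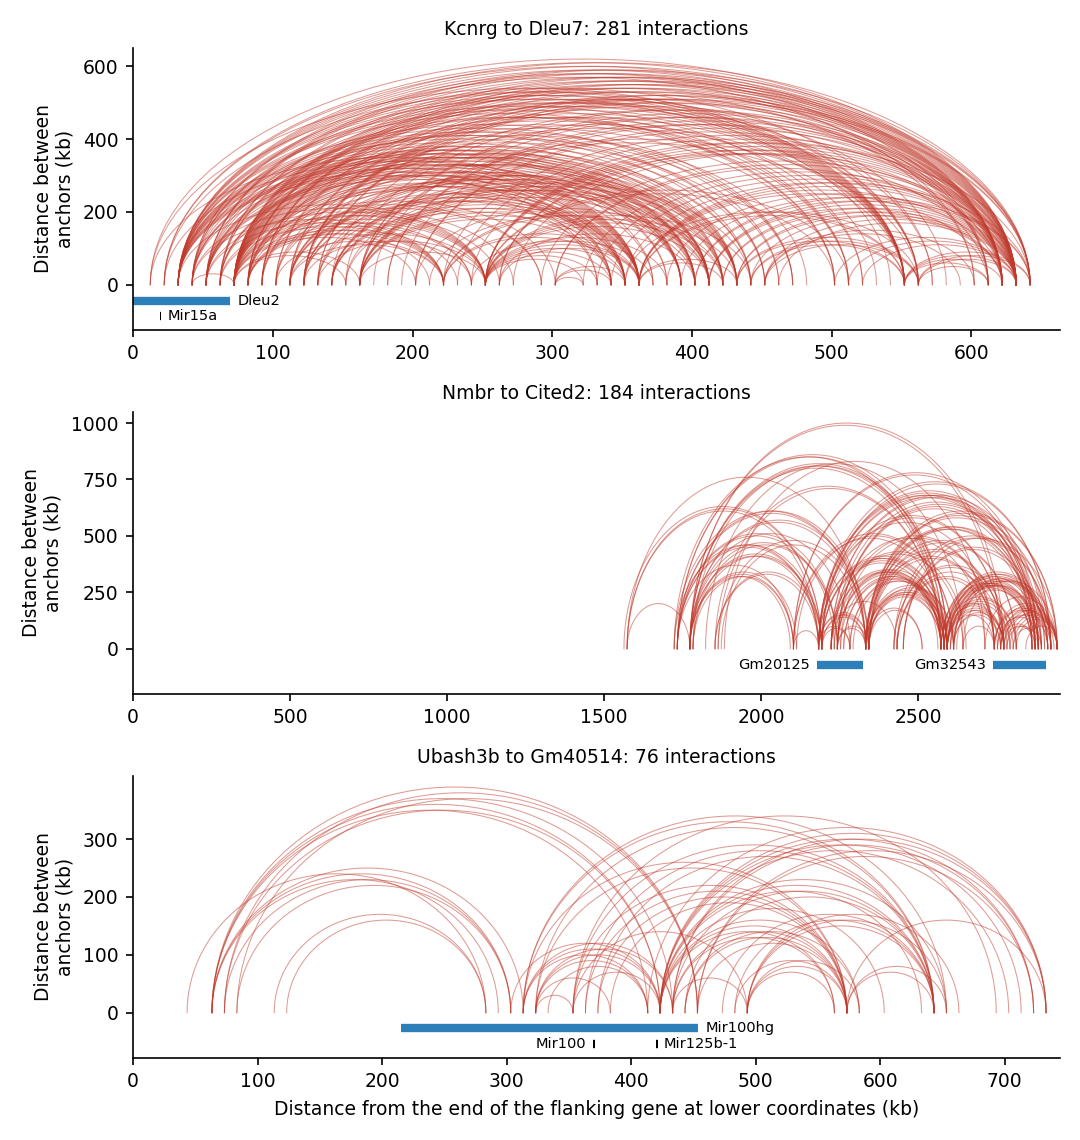
Each arc is 1 interaction inside the named interval, drawn from the flanking gene at lower coordinates (x axis, kb), with arc height equal to the distance between anchors (y axis, kb); blue bars are lncRNA genes and black marks microRNA genes. Arcs fill almost the whole Kcnrg to Dleu7 interval, crowd to the Cited2 side of the Nmbr to Cited2 desert, and meet in and beside Mir100hg in the Ubash3b to Gm40514 interval.

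Interactions were next counted at the nearest coding gene of each anchor. Of 20665 autosomal coding genes, 2673 were nearest to an anchor (12.9%), which is 24.8% of the 10770 genes nearest to any intergenic bin. Such a gene had a median of 3 interactions, and 71 genes had 50 or more. Dleu7 had 259, Kcnrg 238, Cited2 185, Mreg 151, Btg1 150, Klf6 147, Uaca 138, Fn1 134, Tbc1d1 123 and Eea1 119. By merged contacts the order differed, with Klf6 at 70, Cited2 at 66, Btg1 at 50 and Eea1 at 42, against 29 at Dleu7 and 25 at Kcnrg. At Cited2, both anchors were nearest to that gene in 184 of the 185 interactions. Over all interactions, 4728 (35.6%) had the same nearest gene at both anchors.

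Counts for 17 lists of pathway and cell type genes (301 genes) are given against that 24.8%, as a description. The lists were chosen with earlier results of these data known, so an excess over 24.8% is not independent support. In the list of YAP and TEAD target genes, 13 of the 16 genes nearest to an intergenic bin had an interaction (81.2%). Tgfb2, a growth factor gene, had 20 interactions with anchors 2.79 to 222.8 kb away, and Rbms3, an RNA-binding protein gene, had 14. Ccn2, the matricellular gene widely used as a YAP reporter and named here after its values were seen, had 13 at up to 115.4 kb. Of the AP-1 factors, 6 of 7 had one, with Fos at 24 and Jun at 20. Among Hippo pathway genes, 5 of 13 had one, with Frmd6 at 23 and the cadherin gene Fat4 at 7. Notch pathway genes gave 6 of 16, with 81 interactions at Hes1 and 51 at Rbpj, the DNA-binding partner of Notch. Of the proliferation genes, 7 of 10 had one, with Myc at 92 and Ccnd1, a cyclin gene, at 31. Merging neighbours left 45 contacts at Myc, 20 at Hes1, 12 at Frmd6, 8 each at Tgfb2 and Jun, and 6 at Rbpj. It left 5 each at Fos and Fat4, 4 at Ccn2, and 3 each at Ccnd1 and Rbms3.

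Developmental and cell type lists ranged from 2 of 12 to 7 of 11. Patterning homeobox and forkhead genes gave 20 of 33, with 71 interactions at Foxo1 and 57 at Pou3f3. Radial glia and neural stem cell genes gave 8 of 16, with Nfib at 39 after Hes1. Extracellular matrix genes gave 10 of 18, with 134 at Fn1 and 86 at Thbs1. Astrocyte genes gave 5 of 8, with Glul, the glutamine synthetase gene, at 15 and Sox9 at 11. Endothelial genes gave 7 of 11, with the transcription factor gene Erg at 15 and the VEGF receptor gene Kdr at 11. Pericyte and fibroblast genes gave 4 of 10, with the proteoglycan gene Dcn at 44 and Kcnj8 at 4. Microglia and macrophage genes gave 2 of 6, with 28 at Ptprc, the gene of the leukocyte antigen CD45, and 21 at the transcription factor gene Irf8. Oligodendrocyte lineage genes gave 2 of 6, with Olig1 at 3 and Pdgfra at 1. Ependymal and cilium genes gave 5 of 14, with Spag16 at 4 and Ttr at 2. Neuronal genes gave 2 of 12, with Neurod1 and Stmn2 at 2 each. Genes of unrelated tissues gave 3 of 11, with the lens crystallin gene Cryaa at 11 and Ins1 at 3. Adhesion genes known from gene deserts gave 7 of 21, with Adgrl2 at 38 and Cdh2 at 11. By merged contacts, Foxo1 had 29, Thbs1 27, Adgrl2 26, Fn1 23, Nfib 18, Dcn 17, Ptprc 11 and Pou3f3 9. Glul, Sox9 and Cdh2 had 6 each, Kdr 5, Cryaa 4, Erg 3 and Irf8 2.

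Lists also differed in the size of the gap around their genes, and the shares did not follow it in a single order. A gene of the adhesion list was nearest to a median of 198 intergenic bins, one of the patterning list to 42, one of the YAP and TEAD list to 9.5, one of the AP-1 list to 5, one of the Notch list to 3, and a gene in general to 3. Counted per bin, 7.93% of all intergenic bins held an intergenic interaction. That share was 72.7% for AP-1 factors, 33.5% for Notch, 32.1% for microglia and macrophage, 25.6% for matrix, 22.3% for radial glia and 21.2% for proliferation genes. It was 17.3% for endothelial genes, 14.2% for YAP and TEAD targets, 12.4% for pericyte and fibroblast and 10.7% for astrocyte genes. It lay near the background for oligodendrocyte lineage (8.16%), Hippo (7.86%) and patterning genes (7.62%). It was lower for ependymal and cilium genes (4.49%), genes of unrelated tissues (4.17%), neuronal genes (3.31%) and the adhesion genes (1.41%). The part of gap size in the counts was not tested. Bins near 1 gene are not independent, and a nearest gene is not shown to be the one contacted. From bins between Tgfbr2 and Rbms3, 25 listed interactions reached an end of Tgfbr2 and 0 an end of Rbms3. From those between Nr5a2 and Ptprc, 0 reached an end of either gene. The anchor near Dcn with 34 intergenic partners contacted an end of Btg1 and of no other coding gene. Other listed genes differed, and 34 interactions from the Opa1 to Hes1 interval reached an end of Hes1.

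**Figure D5:**
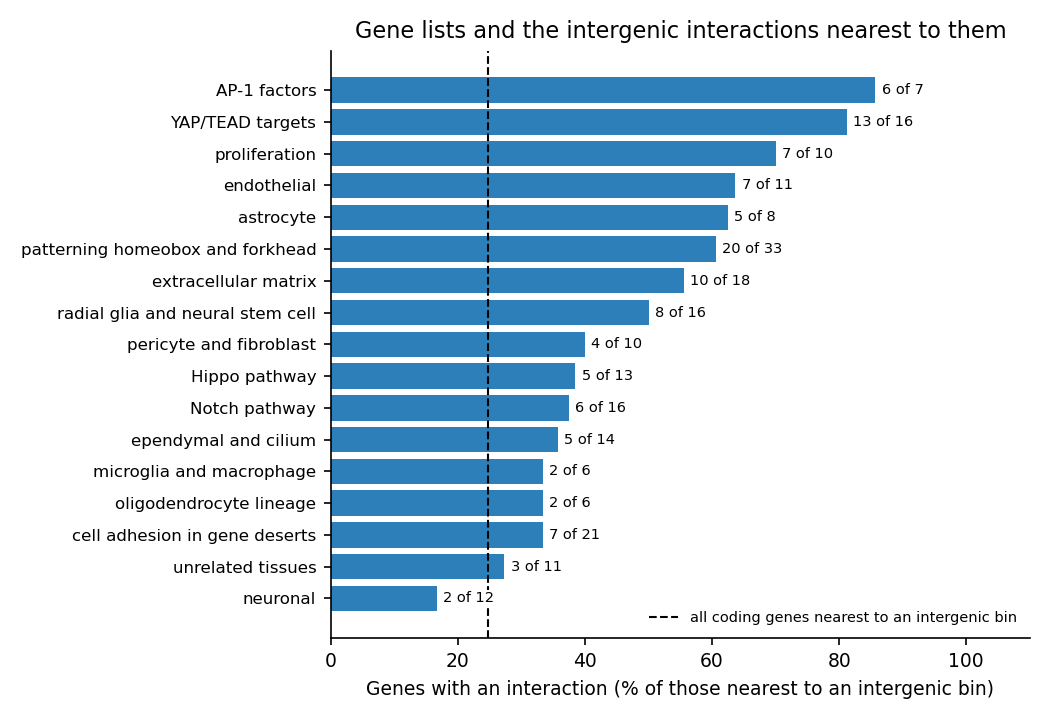
Genes with at least 1 intergenic interaction, as a percentage of the list's genes that are nearest to any intergenic bin (x axis), with the counts printed beside each bar; the dashed line is the 24.8% of all coding genes. AP-1 factors (6 of 7) and YAP and TEAD targets (13 of 16) reach highest, and neuronal genes (2 of 12) lie below the line. The lists were chosen with earlier results of these data known.

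Long noncoding RNA genes were more frequent at the anchors than in intergenic bins at large, and slightly more frequent than at other intergenic anchors. An lncRNA gene overlapped 32.7% of the anchors (31.7 to 33.6), 29.1% of other intergenic anchors (28.2 to 30.1) and 16.8% of all intergenic bins. Pseudogenes overlapped 4.87%, 6.34% and 6.19%. MicroRNA genes were rare, at 0.403%, 0.322% and 0.154%. No annotated gene of any kind lay in 62.1% of the anchors. By interaction, 7829 (58.9%) had a noncoding RNA gene at 1 or both anchors, 15.8% had one at both, and 37.2% had no annotated gene at either. Such a gene lay in 34.0% of the anchors, 30.2% of other intergenic anchors and 17.7% of all intergenic bins. Whether the share by interaction exceeds what the anchor share gives was not tested. Only 273 interactions joined bins of the same lncRNA, and 256 joined a pair of bins that each held an lncRNA start. Immune receptor segments, which were not counted as coding, or other genes were touched by 69 interactions.

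Of 7680 autosomal lncRNA genes with an intergenic bin, 2036 (26.5%) had an interaction, as did 449 of 6273 pseudogenes (7.16%). Dleu2, the lncRNA that hosts the miR-15a and miR-16-1 genes and lies in a region deleted in human leukaemias, had 113. Mir100hg, the host of the Mir100 and Mir125b-1 genes, had 99. Gm32543 had 86, Gm4319 had 82, Gm31718 and Gm51680 had 81 each, Gm13986 had 69, Gm33782 had 66, Gm20125 had 64 and Gm36723 had 61. By merged contacts the order of these lncRNAs differed. Gm32543 had 27, Mir100hg and Gm20125 23 each, Gm33782 19, Gm13986 18 and Gm51680 16. Gm36723 had 12, Dleu2 10, Gm31718 9 and Gm4319 4. Gm32543 and Gm20125 lay in the desert beside Cited2, 42.3 and 627 kb from the gene body, and an end of Cited2 was the only coding-gene end that their anchors contacted. Anchors in Gm36723 likewise contacted an end of Id2 alone, with 260 kb between the gene bodies. Gm13986 ran up to Thbs1 and was the most internally linked, with 27 of its 69 interactions inside the gene.

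For 3 of these lncRNAs the RefSeq promoter window (250 bases before to 50 after an annotated start, GRCm38.p6) lay in an anchor with 13 or more interactions, and it is shown here because the anchor is a lncRNA start. A TEAD motif (GGAATG or CATTCC) and an AP-1 motif (TGANTCA), on either strand, are in capitals.
Dleu2, chr14:61682324-61682623, minus strand, 41 interactions at its bin: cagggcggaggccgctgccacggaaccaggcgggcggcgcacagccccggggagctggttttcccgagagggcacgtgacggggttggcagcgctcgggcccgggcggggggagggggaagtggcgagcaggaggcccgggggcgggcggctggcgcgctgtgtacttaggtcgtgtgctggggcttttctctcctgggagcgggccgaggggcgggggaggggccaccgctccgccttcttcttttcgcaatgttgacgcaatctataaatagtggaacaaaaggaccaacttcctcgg
Gm4319, chr1:72123709-72124008, minus strand, 23 interactions: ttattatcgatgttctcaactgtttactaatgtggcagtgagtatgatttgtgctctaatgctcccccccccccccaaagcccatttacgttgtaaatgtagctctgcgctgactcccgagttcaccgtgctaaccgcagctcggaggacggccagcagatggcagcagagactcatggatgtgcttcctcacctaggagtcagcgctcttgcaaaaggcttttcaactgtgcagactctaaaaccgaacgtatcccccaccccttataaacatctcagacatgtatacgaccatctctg
Gm31718, chr8:126853199-126853498, minus strand, 13 interactions: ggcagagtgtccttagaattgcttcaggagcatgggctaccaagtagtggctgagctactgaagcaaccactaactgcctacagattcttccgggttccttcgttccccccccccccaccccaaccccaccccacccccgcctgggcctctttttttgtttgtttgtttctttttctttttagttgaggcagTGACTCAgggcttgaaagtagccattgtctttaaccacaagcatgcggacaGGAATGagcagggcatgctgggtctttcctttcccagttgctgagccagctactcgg
The Gm31718 window held 1 AP-1 match at base 193 and 1 TEAD match at base 244, the Dleu2 and Gm4319 windows held neither, and the Dleu2 window was 69% G and C. In the table as a whole, 14.7% of 32851 promoters held the TEAD letters and 7.81% the AP-1 letters. Of 1299 lncRNA promoters in an anchor of an intergenic interaction, 17.5% and 11.5% did, against 16.7% and 9.25% of all 11311 autosomal lncRNA promoters. A match is a description of letters, not a bound site.

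The 55 microRNA genes lay in 39 anchor bins, out of 255 microRNA genes with an intergenic bin (21.6%). A lncRNA gene overlapped 25 of the 39 bins, which does not show that the microRNA lies inside it. Of the 39 bins, 20 also contacted a coding-gene end. The bin of Mir125b-1 on chromosome 9 (41580001 to 41590000) had 20 interactions, reaching 360 kb to lower and 370 kb to higher coordinates. The bin of Mir9-2, a neural microRNA gene in the lncRNA C130071C03Rik, had 13, all to higher coordinates and up to 890 kb. The bin of Mir124a-2, another neural microRNA gene, in Mir124-2hg, had 9, all to lower coordinates and up to 980 kb. Genes with fewer interactions are described for a shared seed, cluster or interval, and were picked after their values were seen. The 3 gene copies that give miR-9-5p, printed above, were all in anchors, with 13 interactions for Mir9-2 and 2 each for Mir9-1 and Mir9-3. The bin of Mir1897 in Sox2ot, the lncRNA that overlaps Sox2, had 10, and that of Mir193a had 11. The bin of Mirlet7c-2 and Mirlet7b had 6, all to lower coordinates. The Mir17 to Mir92-1 cluster, which promotes proliferation in many tumors, shared 1 bin with 6 interactions, all to lower coordinates within 200 kb. Mir15a and Mir16-1 shared a bin with 4, reaching 610 kb into the Kcnrg to Dleu7 interval.

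Related clusters on chromosomes 9 and 16 were both in anchors. On chromosome 9, the bin of Mir100 and Mirlet7a-2 had 4 interactions beside the 20 at Mir125b-1. On chromosome 16, the bin of Mir99a and Mirlet7c-1 (77590001 to 77600000) had 8, and that of Mir125b-2 had 3. The intervals around both clusters were also among those with the most interactions whose anchors contacted no coding gene bin, as seen after the values were known. These were 44 of 76 interactions between Ubash3b and Gm40514, and 32 of 36 between Usp25 and Cxadr.

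Partners were spread unevenly over anchors. An anchor had a median of 2 intergenic partners and a mean of 2.75, 46.8% had 1, and 360 had 10 or more. An anchor near Dleu7 (chr14:62240001-62250000, 26.2 kb from it) had the most, 50, all at lower coordinates and up to 730 kb away. The bin with the Dleu2 start (chr14:61680001-61690000), at the other side of that interval, had 41, of which 40 ran to higher coordinates. The lncRNA gene Gm35196 also overlaps this bin, so its 41 interactions cannot be assigned to Dleu2 alone. On chromosome 10 an anchor in Gm33782, 277 kb from Btg1, had 44, of which 38 ran to higher coordinates, up to 1000 kb. One sidedness was common among the 10 most connected anchors. All partners lay to 1 side at the anchors nearest to Klf4 (39, higher), Sorl1 (36, lower), Dcn (34, lower), Opa1 (31, higher) and Cpn2 (30, lower), and at the anchor in Gm4319 near Mreg (32, lower). The anchor near Agr3 had 31 of 32 at lower coordinates. Merging neighbours left 16 contacts at the anchor in Gm33782, and 13 and 11 at those near Klf4 and Dcn. It left 9 each at the anchors near Dleu7 and Agr3, and 8 each at the Dleu2 start and near Cpn2. The anchor near Sorl1 kept 7, that near Opa1 6 and that in Gm4319 3. The anchors near Opa1 and Cpn2 lie on either side of Hes1, and both contacted an end of Hes1. The anchors near Klf4 and Sorl1, 7.14 and 4.71 kb from those genes, contacted no coding-gene end.

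Linking anchors joined by an interaction, directly or through other anchors, gave 1317 groups. Of these, 383 (29.1%) were a single pair, and 285 with 10 or more anchors held 76.2% of the interactions. The largest spanned 1220 kb on chromosome 10 (96130001 to 97350000), from near Eea1 past Btg1 to near Dcn, with 73 anchors and 197 interactions. The group around Dleu2 and Dleu7 had 68 anchors and 294 interactions in 940 kb. The group around Myc (chr15:61100001-63740000) had 64 anchors and 115 interactions over 2640 kb.

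Part of the intergenic contacts closed a triangle with a gene. In 4867 of 13294 (36.6%, 35.8 to 37.4) both anchors also contacted the same bin at a coding-gene end, taken as within 2.5 kb of either end of the gene. That gene was a nearest gene of an anchor in 64.8% of these. The gene end lay between the anchors in 19.8% of the 6800 triangles so formed and outside them in the rest. Both anchors contacted some gene end in 47.8% of the interactions, 1 in 40.4% and neither in 11.8%. Neither the triangle share nor these shares are given for the other classes, so they have no reference here. The triangle share also depended on the definition, from 20% by anchor midpoint to 44.3% counting all annotated genes. The genes with the most triangles were Btg1 (104), Fn1 (100), Thbs1 (97), Tle3 (90), Cited2 (82), Hes1 (74), Myc (73), Klf4 (68), Prickle1 (65) and Tsc22d1 (61). Klf4 is a pluripotency-associated zinc-finger factor and Tsc22d1 a leucine zipper protein induced by TGF-beta. For Btg1 these involved 47 anchors at a median 302 kb from the gene, and for Hes1 34 anchors at 175 kb.

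A smaller set had no coding partner at all. In 1155 interactions (8.69%) neither anchor contacted any coding gene bin in the list. They included 81 of the 281 interactions between Kcnrg and Dleu7 and all 36 between Npvf, a neuropeptide gene, and Gm38821. They also included all 30 between 1700010I14Rik and Pabpc6, and 27 of 29 between Lcorl and Slit2, the gene of an axon guidance ligand. Absence from the list says only that no contact with a coding gene bin passed the threshold of the list, which is not given in the sources used here.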

How the data were processed

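HiChIP with an H3K27ac antibody was run on 2 YAP-M tumor and 2 neural stem cell libraries, per the labels' protocol; the titles name ChIP-seq. The authors deposited 1 list of pairs of 10 kb bins with no score, count or sample column. Reads were aligned with BWA to mm10, per the submitters' processing notes; for the caller, threshold and pooling of interactions, the sources used here give nothing. From the list, bins were compared with NCBI RefSeq genes of GRCm38.p6 (20665 autosomal coding genes) with Python 3.11.15, pandas 2.3.3 and networkx 3.6.1. An anchor was intergenic when it overlapped no coding gene extended by 2.5 kb. Shares carry exact Clopper-Pearson 95% intervals (SciPy 1.17.1). No test was made, since the list has no values per library. Genes named by rule are the top 10 of each count, microRNA genes at anchors, and the 2 highest of each gene list. Other genes, those of the largest deserts, linked groups and intervals without coding partners included, were picked after their values were seen. Overlap, nearest-gene and gene-skipping steps were tested on simulated data. Members and lists were chosen with earlier results of these data known. Of 301 listed genes, 5 on X were not scored, and 1 was matched by synonym.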

Additional observations from a re-analysis of the deposited data

How the results depend on the processing

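The share of interactions between intergenic anchors was 15.4% with no margin around genes, 12% with 5 kb, 14% without genes named Gm, LOC or Rik, 4.16% counting all annotated genes, 19.7% by anchor midpoint and 18% with adjacent interactions merged. The median distance was 180 kb with no margin, by midpoint and when merged, and 200 kb with all annotated genes. In the same order, the share inside 1 interval was 60.3%, 66.7%, 65.6%, 19.3%, 53.7% and 66.2%, and that in deserts 29.1%, 35.1%, 33.4%, 1.94%, 25.2% and 35.3%. Without the Kcnrg to Dleu7 interval the desert share was 31.0%. The share with a noncoding gene at an anchor was 42.2% by midpoint and 60.4% merged. The triangle share was 32.3% with no margin, 40.1% with 5 kb, 44.3% with all annotated genes, 20.0% by midpoint, 41.2% merged and, chosen after seeing the data, 27.1% with annotated starts in place of gene ends. Counting all annotated genes or midpoints changes which bins are intergenic by construction. Of 41 alternatives, 10 stayed within the interval of the value reported. The noncoding share could not be had with all annotated genes, since no noncoding gene is then left at an anchor. No paired analysis was possible because interactions carry no value for any library. Bins of 10 kb and an unknown depth and threshold limit all counts, and contacts missing from the list cannot be called absent.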
